A study of Mus musculus with 30 samples.

Results

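Acetylcholine receptor and neuromuscular junction genes were followed by 10 symbols, the muscle receptor subunits CHRNA1, CHRNB1, CHRND, CHRNG and CHRNE, the subunit CHRNA9, the receptor kinase MUSK, the scaffold protein RAPSN, and the enzyme ACHE with its collagen tail COLQ. All 10 were found by symbol among the 21073 genes of the table. Extensor digitorum longus (EDL), a fast muscle of the lower hind limb, came from 30 female SJL/J mice, with 1 RNA-Seq library per mouse. EAE-induced mice were given a peptide of proteolipid protein in complete Freund's adjuvant (CFA), with no pertussis toxin, OVA-immunized mice received ovalbumin in the same adjuvant, and unimmunized (Ctrl) mice received neither. Each of the 3 groups was sampled on day 14 (the peak of disease) and on day 40 (chronic remission), with 5 mice per group and different mice on each day. OVA-immunized and EAE-induced mice shared the adjuvant, so EAE vs. OVA compared the antigens and OVA vs. Ctrl compared immunization with none. The antigens were given at different doses, the ovalbumin dose being the higher. Ages are not given in the sources used here, and disease scores of the single mice were not used.

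At the neuromuscular junction, acetylcholine released by the motor nerve opens a receptor of 5 subunits in the muscle membrane. In the adult synapse it holds the alpha, beta, delta and epsilon subunits, while in fetal muscle the gamma subunit takes the place of epsilon. Nerve-derived agrin acts through the kinase MUSK, and the protein rapsyn holds the receptors in clusters under the nerve ending. Acetylcholinesterase, anchored in the synaptic cleft by the collagen-like protein encoded by COLQ, breaks the transmitter down. In innervated fibres these genes are transcribed mainly by the nuclei under the synapse, and loss of nerve activity is known to raise the receptor subunits and MUSK along the whole fibre. Transcription factors of the MyoD family, myogenin among them, bind the E-box letters CANNTG in promoters of such genes, and Ets factors bind the N-box letters CCGGAA in promoters of synaptic genes, CHRNE being a known case.

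The stretch from 195 to 26 bases before the transcription start is shown for 5 of the genes. These are the genes that matched the RefSeq promoter table, apart from CHRNB1 and MUSK. They include both receptor forms (CHRNG, CHRNE) and both directions of change on day 14 (CHRNA1, CHRNG and CHRNA9 higher, ACHE lower). Of the 10 genes 7 matched the RefSeq promoter table (GRCm38.p6). CHRND, RAPSN and COLQ did not. The window of CHRNB1 was left out because it runs into an exon of the neighbouring gene Fgf11, and that of MUSK because it lies within a longer RefSeq model of the gene. The windows of CHRNG, CHRNA9 and ACHE lie in introns of longer annotated transcripts of those genes. That of CHRNA9 also lies within the RefSeq span of its gene (65934854 to 65977486), so its start is an internal one, and it was kept. Each line runs 5′ to 3′ on the strand of the gene, and capitals mark the E-box CANNTG and the N-box CCGGAA, which was searched on both strands. The windows are chr2:73580364-73580533 (minus strand) for CHRNA1, chr1:87205616-87205785 (plus) for CHRNG, chr5:65966929-65967098 (plus) for CHRNA9, chr11:70619220-70619389 (minus) for CHRNE and chr5:137288059-137288228 (plus) for ACHE.
CHRNA1: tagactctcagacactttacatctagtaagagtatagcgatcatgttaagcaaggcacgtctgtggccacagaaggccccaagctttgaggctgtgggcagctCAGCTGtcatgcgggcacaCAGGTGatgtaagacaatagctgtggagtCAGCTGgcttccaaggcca
CHRNG: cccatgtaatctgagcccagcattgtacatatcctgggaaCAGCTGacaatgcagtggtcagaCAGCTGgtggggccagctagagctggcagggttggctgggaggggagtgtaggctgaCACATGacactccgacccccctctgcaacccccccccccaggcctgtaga
CHRNA9: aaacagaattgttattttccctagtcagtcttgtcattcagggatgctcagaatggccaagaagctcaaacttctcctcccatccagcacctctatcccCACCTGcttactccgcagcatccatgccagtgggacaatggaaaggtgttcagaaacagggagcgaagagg
CHRNE: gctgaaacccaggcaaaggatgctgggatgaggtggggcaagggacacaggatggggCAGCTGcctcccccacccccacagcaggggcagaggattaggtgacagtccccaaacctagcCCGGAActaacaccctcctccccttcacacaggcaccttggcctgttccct
ACHE: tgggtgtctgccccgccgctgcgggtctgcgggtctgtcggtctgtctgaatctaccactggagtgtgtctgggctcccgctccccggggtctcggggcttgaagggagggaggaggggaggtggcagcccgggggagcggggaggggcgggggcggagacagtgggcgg

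CHRNA1 and CHRNG each held 3 E-boxes in this window, CHRNA9 and CHRNE 1 each, and ACHE none. The form CAGCTG stood at 92 and 44 bases before the start in CHRNA1, at 155 and 132 in CHRNG and at 138 in CHRNE. The N-box was found in CHRNE, at 76 bases before the start, and not in the other 4 windows. Of all 32851 promoters of the RefSeq table, 52.7% held CANNTG in the same window and 5.24% held it at least 3 times. CAGCTG was in 9.15% of them, at least 2 copies were in 0.676%, and CCGGAA was in 8.24%. CAGCTG is one of the forms of CANNTG, so these matches overlap. A match describes letters in a window and not a bound site.

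Values are given as RPKM, a read count divided by the length of a gene's exons and by the size of the library, so that levels of genes of different length can be set side by side. Fold changes are on the log2(RPKM + 0.1) scale, which understates changes of genes near 0. The estimated depth ran from 18100000 to 31700000 reads on genes per mouse (median 21700000), with the deepest library in EAE replicate 3 of day 14. Of 8 fast fibre marker genes, all 8 exceeded 1 RPKM in every group and their summed level was 48656 to 93399.7 RPKM in the mice of day 14, which is the fibre type known for EDL. A gene was called when its Benjamini-Hochberg adjusted p in limma was below 0.05 and its fold change above 1.5, and a gene was tested when either compared group had a mean over 3 RPKM. In whole muscle, fewer cells of a type and less RNA per cell cannot be told apart.

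On day 14, 6 of the 10 genes were called higher and 2 lower in EAE-induced than in unimmunized mice. Among the 8771 genes tested in this comparison 26.4% were called, 14.6% higher and 11.8% lower. The 6 higher genes were the receptor subunits CHRNA1, CHRNB1, CHRND, CHRNG and CHRNA9 and the kinase MUSK, with log2 fold changes from 1.78 to 5.05. The 2 lower genes were the esterase ACHE and its anchor COLQ. CHRNE and RAPSN were not called. Against OVA-immunized mice, a comparison that uses the same EAE-induced mice, 6 genes were called higher and 2 lower, beside 20.3% of 8674 genes called (11% higher and 9.28% lower). CHRNG, CHRNA9, CHRND and MUSK had means under 3 RPKM in unimmunized and OVA-immunized mice of day 14 and so were tested through the EAE-induced group alone. Without the filter, 8 of the 10 genes were called in each comparison, beside 20.4% and 14% of 17474 genes.

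**Figure D1:**
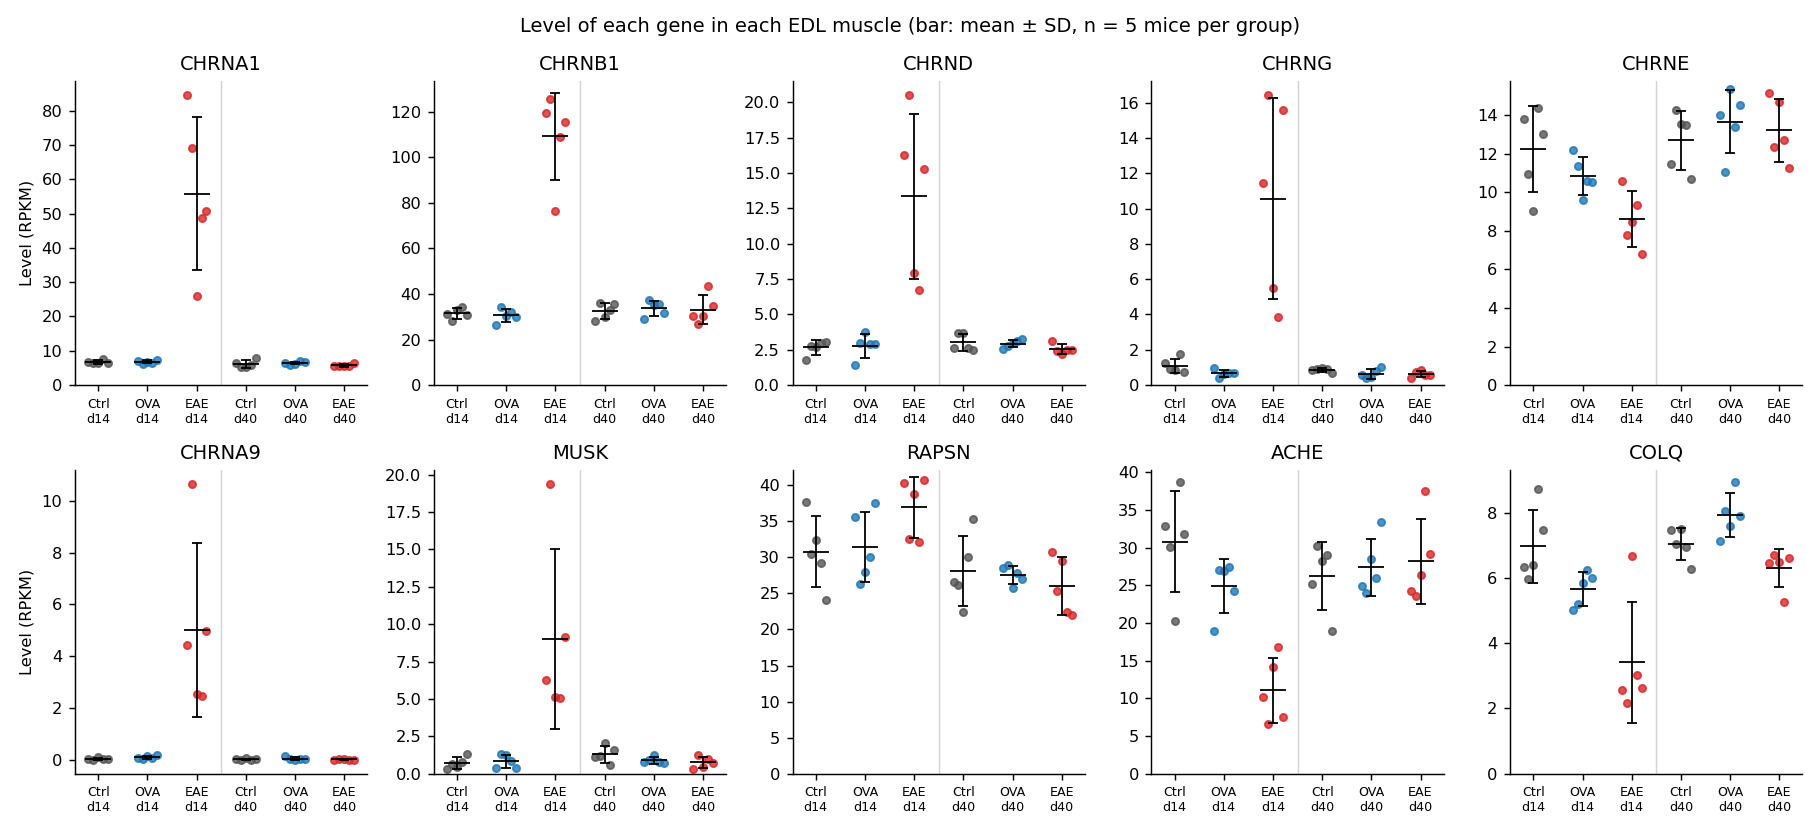
Level of each of the 10 genes in RPKM (vertical axis, linear, a scale of its own for each gene) in the 5 mice of each of the 6 groups, with the mean ± SD as black bars. On day 14 the EAE-induced mice lie above all other mice in CHRNA1, CHRNB1, CHRND, CHRNG, CHRNA9 and MUSK and below the other mice of that day in ACHE, while on day 40 the 3 groups overlap except for COLQ between EAE-induced and OVA-immunized mice.

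CHRNA1 (Entrez gene 11435, chromosome 2 of GRCm38 from 73563215 to 73580338, minus strand) encodes the alpha subunit, which binds acetylcholine. Its level in EAE-induced mice of day 14 was 84.7, 69.2, 25.8, 48.6 and 50.6 RPKM in replicates 1 to 5. In unimmunized mice of that day it was 6.84, 6.36, 6.49, 7.49 and 6.34 RPKM, and in OVA-immunized mice 7.00, 6.24, 6.70, 6.46 and 7.43 RPKM. Every EAE-induced mouse was above every other mouse, with replicate 1 highest and replicate 3 lowest. The mean was 55.8 ± 22.3 RPKM in EAE-induced mice and 6.71 ± 0.484 RPKM in unimmunized mice (SD, n = 5 each). This was 2.93 on the log2 scale (SE 0.22, limma adjusted p 4.83e-07). Against OVA-immunized mice, at 6.77 ± 0.465 RPKM, it was 2.92 (SE 0.22, limma adjusted p 4.43e-07).

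CHRNB1 (Entrez gene 11443, chromosome 11 from 69784036 to 69795943, minus strand), the beta subunit, was the most abundant of the 10 genes in unimmunized mice of day 14, at 31.3, 28.0, 33.1, 34.2 and 30.6 RPKM. In OVA-immunized mice it was 26.5 to 34.1 RPKM. In EAE-induced mice it was 119.3, 125.8, 76.6, 108.9 and 115.5 RPKM. Here too the groups did not overlap, and replicate 3 was the lowest EAE-induced mouse. Its log2 fold change was the smallest of the 6 higher genes, at 1.78 (SE 0.12, limma adjusted p 3.21e-07) against unimmunized and 1.82 (SE 0.12, limma adjusted p 3.05e-07) against OVA-immunized mice.

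CHRND (Entrez gene 11447, chromosome 1 from 87190607 to 87200070, plus strand), the delta subunit, lies next to CHRNG, with 5740 bases between their RefSeq ends. Its level was 16.3, 20.6, 7.96, 6.73 and 15.3 RPKM in EAE-induced mice of day 14, while unimmunized mice had 1.79, 2.79, 2.72, 2.99 and 3.03 RPKM and OVA-immunized mice 1.38 to 3.73 RPKM. The EAE-induced mice stood above both other groups, with replicates 3 and 4 well below the other 3. Its log2 fold change came to 2.18 (SE 0.30, limma adjusted p 4.52e-05) against unimmunized and 2.16 (SE 0.30, limma adjusted p 5.48e-05) against OVA-immunized mice.

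CHRNG (Entrez gene 11449, chromosome 1 from 87204657 to 87212694, plus strand) encodes the gamma subunit of the fetal receptor. In EAE-induced mice of day 14 it was at 11.4, 16.4, 5.50, 3.88 and 15.6 RPKM. In unimmunized mice it was at 1.24, 0.891, 0.847, 1.75 and 0.742 RPKM, and in OVA-immunized mice at 0.951, 0.390, 0.623, 0.662 and 0.691 RPKM. Replicate 4, the lowest EAE-induced mouse, was still above the highest unimmunized mouse, which was replicate 4 of that group. The mean of 10.6 ± 5.72 RPKM (SD, n = 5) in EAE-induced mice compares with 1.09 ± 0.410 and 0.663 ± 0.200 RPKM, with log2 fold changes of 3.01 (SE 0.37, limma adjusted p 1.55e-05) and 3.64 (SE 0.37, limma adjusted p 4.54e-06). With 1 added to RPKM in place of 0.1, they were 2.31 and 2.63.

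CHRNE (Entrez gene 11448, chromosome 11 from 70614883 to 70619216, minus strand), which encodes the epsilon subunit of the adult receptor, was the muscle subunit that was not called. It was at 10.6, 7.77, 8.48, 9.36 and 6.83 RPKM in EAE-induced mice of day 14, at 13.8, 11.0, 9.03, 14.4 and 13.0 RPKM in unimmunized mice and at 12.2, 11.4, 9.61, 10.6 and 10.5 RPKM in mice given OVA. The groups overlapped, although 4 of the 5 unimmunized mice were above every EAE-induced mouse. Against unimmunized mice the log2 fold change was -0.50 (SE 0.14), with a limma adjusted p of 0.00809 but a fold change short of 1.5. Without unimmunized replicate 3 it was -0.60 (limma adjusted p 0.00221), past that threshold. Against OVA-immunized mice it was -0.34 (SE 0.14, limma adjusted p 0.0590). Another gene, 4930544D05Rik, lies within CHRNE on the opposite strand, with no overlap of exons.

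**Figure D2:**
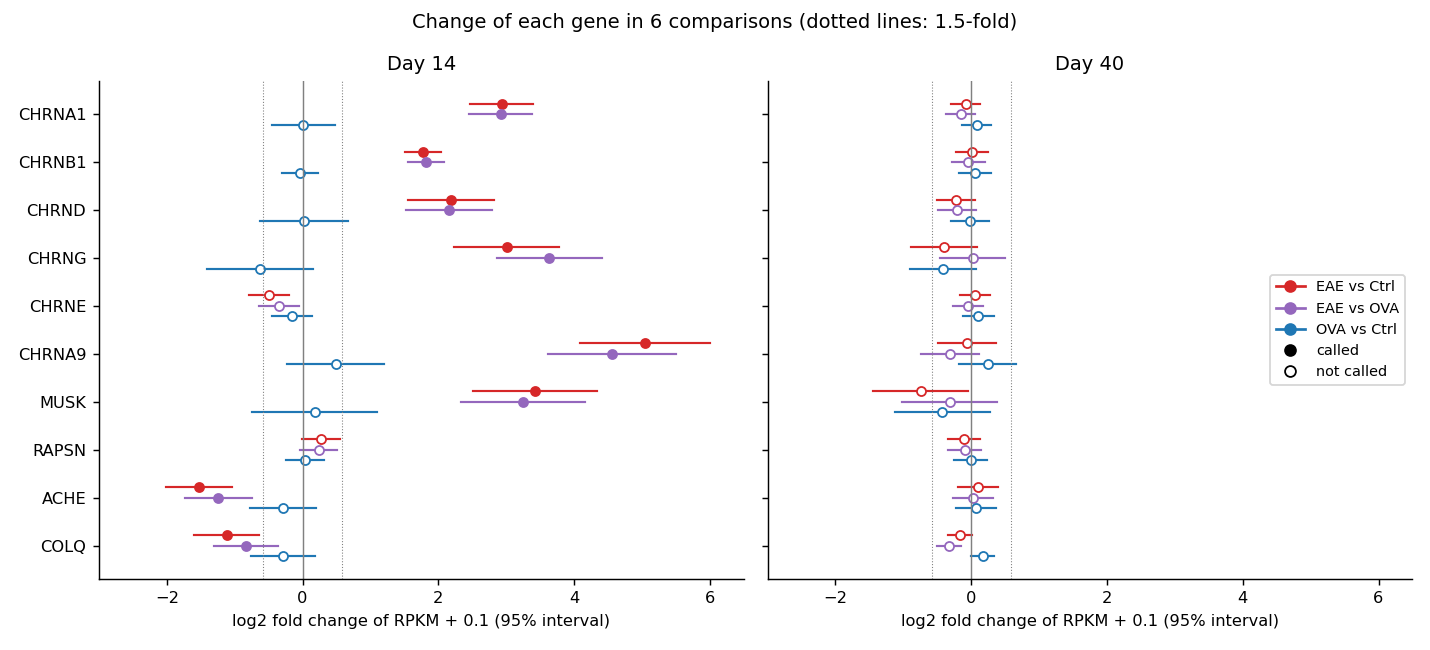
Log2 fold change of RPKM + 0.1 with its 95% interval from limma for each of the 10 genes on day 14 (left) and day 40 (right), with filled points for called genes and the no-filter fit for genes under 3 RPKM. On day 14 the EAE comparisons run from -1.53 for ACHE to 5.05 for CHRNA9, and on day 40 no gene was called.

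The gamma and epsilon subunits were set against each other as the log2 of (CHRNG + 0.1) over (CHRNE + 0.1) in each mouse, a ratio within 1 library. In EAE-induced mice of day 14 this was 0.10 ± 1.05, while it was -3.41 ± 0.36 without immunization and -3.88 ± 0.39 with OVA (SD, n = 5 each). The RPKM of CHRNG was 0.414 to 2.28 times that of CHRNE in the EAE-induced mice, 0.0570 to 0.121 times in unimmunized and 0.0342 to 0.0779 times in OVA-immunized mice, so the groups did not overlap. The differences were 3.51 and 3.98 on the log2 scale, each with a two-sided exact permutation p of 0.00794, the smallest that 5 against 5 mice allow, and 0.0238 after adjustment over the 6 comparisons. With 1 added in place of 0.1 they were 2.77 and 2.95, with the same adjusted p. Read as shares, CHRNG was 51.6% ± 17.6 of CHRNG and CHRNE together in EAE-induced mice and 8.11% ± 1.95 in unimmunized mice.

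The summed level of the 5 muscle subunits was 197.6 ± 48.9 RPKM in EAE-induced mice of day 14 and 54.2 ± 4.36 RPKM in unimmunized mice. CHRNA1 took 27.4% ± 5.24 of that sum in EAE-induced and 12.4% ± 0.422 in unimmunized mice, and CHRNE took 4.61% ± 1.49 against 22.5% ± 3.08. The share of CHRNB1 was 56.3% ± 5.44 and 58.1% ± 2.98. The sum grew while CHRNB1 kept the larger part of it, the share of CHRNE shrank and that of CHRNA1 grew.

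**Figure D3:**
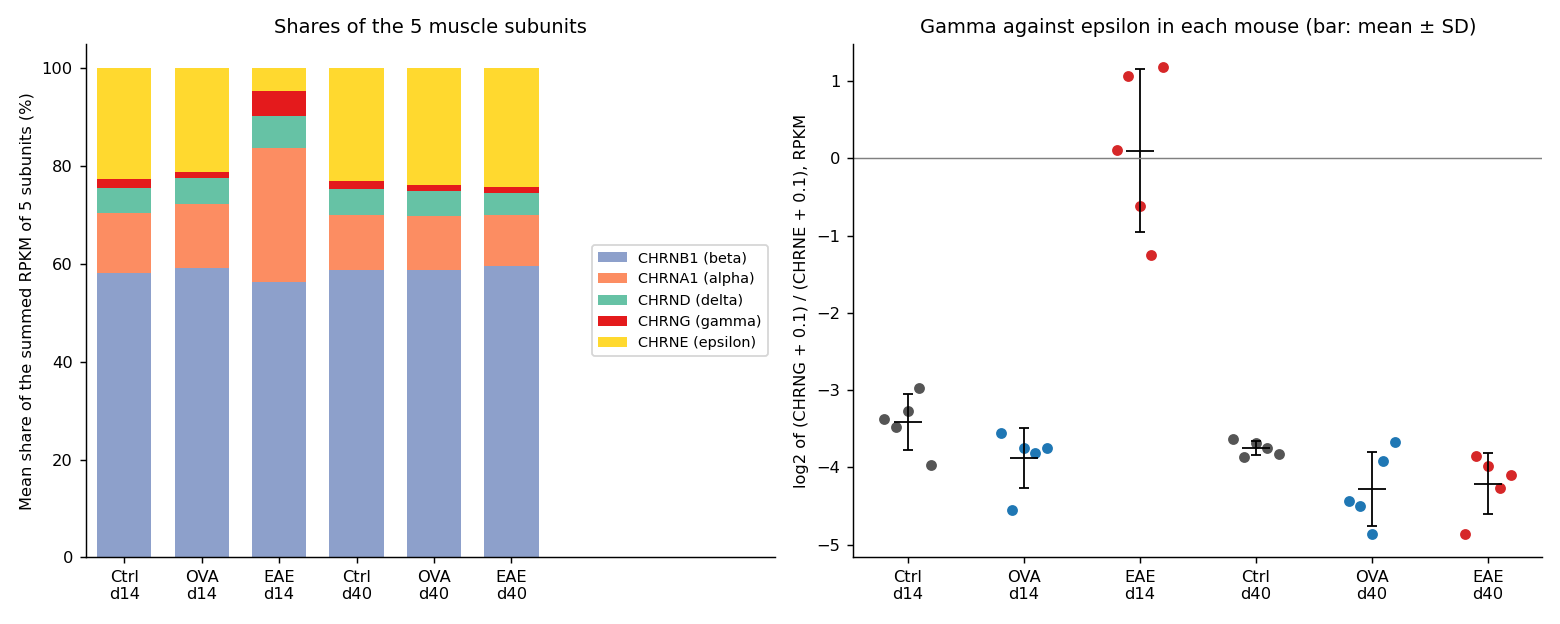
Left, mean share (%) of each of the 5 muscle subunits in their summed RPKM in the 6 groups. Right, log2 of (CHRNG + 0.1) over (CHRNE + 0.1) in each mouse with the mean ± SD, which is 0.10 in EAE-induced mice of day 14 and between -4.28 and -3.41 in the other 5 groups.

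CHRNA9 (Entrez gene 231252, chromosome 5 from 65934921 to 65977326, plus strand) encodes the alpha9 nicotinic subunit, best known from the hair cells of the inner ear. It was at 4.43, 10.7, 2.53, 2.46 and 4.97 RPKM in EAE-induced mice of day 14. In the 10 other mice of day 14 it was between 0 and 0.178 RPKM, and on day 40 between 0 and 0.138 RPKM. From the step that 1 read adds to the value, these levels came to 104 to 426 reads in each EAE-induced mouse of day 14, 0 to 4 reads in unimmunized and 2 to 7 reads in OVA-immunized mice. The gene was thus at the limit of a few reads in every group but EAE-induced mice of day 14. The means of 5.01 and 0.0366 RPKM stood in a ratio of 137, while the log2 fold change, damped by the added 0.1, was 5.05 (SE 0.45, limma adjusted p 1.28e-06). Against OVA-immunized mice it was 4.56 (SE 0.45, limma adjusted p 3.68e-06). With 1 added in place of 0.1, these were 2.38 and 2.31.

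MUSK (Entrez gene 18198, chromosome 4 from 58285960 to 58374303, plus strand) encodes the kinase that organizes the postsynaptic membrane. Its level was 6.30, 19.4, 5.15, 5.10 and 9.16 RPKM in EAE-induced mice of day 14, 0.315, 0.677, 0.432, 0.782 and 1.33 RPKM in unimmunized mice and 0.352, 1.31, 1.25, 0.826 and 0.405 RPKM in mice given OVA. EAE replicate 2 was the highest of all 30 mice, and the lowest EAE-induced mouse was above all mice of both other groups. MUSK rose by 3.43 on the log2 scale (SE 0.43, limma adjusted p 2.08e-05) against unimmunized and 3.25 (SE 0.43, limma adjusted p 3.78e-05) against OVA-immunized mice. These were 2.41 and 2.32 with 1 added to RPKM.

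RAPSN (Entrez gene 19400, chromosome 2 from 91035620 to 91045729, plus strand), which encodes the receptor-clustering protein rapsyn, overlapped between the groups on day 14. It was at 40.4, 32.6, 38.9, 32.1 and 40.8 RPKM in EAE-induced, 37.7, 30.5, 32.4, 29.3 and 24.1 RPKM in unimmunized and 26.4 to 37.5 RPKM in OVA-immunized mice. From unimmunized mice it differed by 0.27 on the log2 scale (95% interval -0.01 to 0.55, limma adjusted p 0.102). Its interval lies below the fold changes of CHRNA1, CHRNB1, CHRND and CHRNG in the same mice. An annotated transcript on the opposite strand, Gm13778, shares exonic sequence with RAPSN, and the strand setting of the counting is not given in the sources used here.

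ACHE (Entrez gene 11423, chromosome 5 from 137287519 to 137294466, plus strand), the esterase that ends the signal, was lower in EAE-induced mice of day 14. The 5 mice were at 10.2, 6.65, 14.2, 16.8 and 7.50 RPKM, while unimmunized mice had 32.9, 30.1, 20.3, 38.7 and 31.8 RPKM and OVA-immunized mice 18.9, 27.1, 26.9, 27.4 and 24.2 RPKM. All 5 were below both control groups. The mean was 11.1 ± 4.35 against 30.8 ± 6.69 and 24.9 ± 3.57 RPKM (SD, n = 5 each), with log2 fold changes of -1.53 (SE 0.23, limma adjusted p 9.71e-05) and -1.24 (SE 0.23, limma adjusted p 0.000648).

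COLQ (Entrez gene 382864, chromosome 14 from 31523082 to 31591343, minus strand), which encodes the collagen tail of the synaptic esterase, was at 2.56, 2.17, 6.67, 3.03 and 2.63 RPKM in EAE-induced mice of day 14. It was at 6.33, 5.97, 6.39, 8.72 and 7.47 RPKM in unimmunized mice and at 5.02, 5.22, 5.85, 6.24 and 6.00 RPKM in those given OVA. Of the EAE-induced mice, 4 were below every control mouse and replicate 3 lay within the unimmunized range. COLQ differed by -1.12 on the log2 scale (SE 0.22, limma adjusted p 0.000922) from unimmunized and by -0.83 (SE 0.22, limma adjusted p 0.00835) from OVA-immunized mice. Without EAE replicate 3 these were -1.39 and -1.10. A further annotated gene, Gm49387, overlaps COLQ in exons on the same strand.

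All 5 EAE-induced mice were above all 5 unimmunized mice in 6 of the 10 genes on day 14 and below them in 1, ACHE. Among all genes tested, 21.2% and 11% were separated in this way. Against OVA-immunized mice, 6 and 1 genes were separated, beside 18% and 8.2% of all genes tested.

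The level differed between the EAE-induced mice of day 14, and the same mice were high or low in several genes. Replicate 2 was highest in 5 of the 6 higher genes and lowest in both ACHE and COLQ. Replicates 1, 2 and 5 took the upper 3 places in all 6 higher genes. Replicate 3 was lowest in 2 of the higher genes and highest in COLQ, and replicate 4 was lowest in 4 of them and highest in ACHE. With 5 mice no correlation is given.

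**Figure D4:**
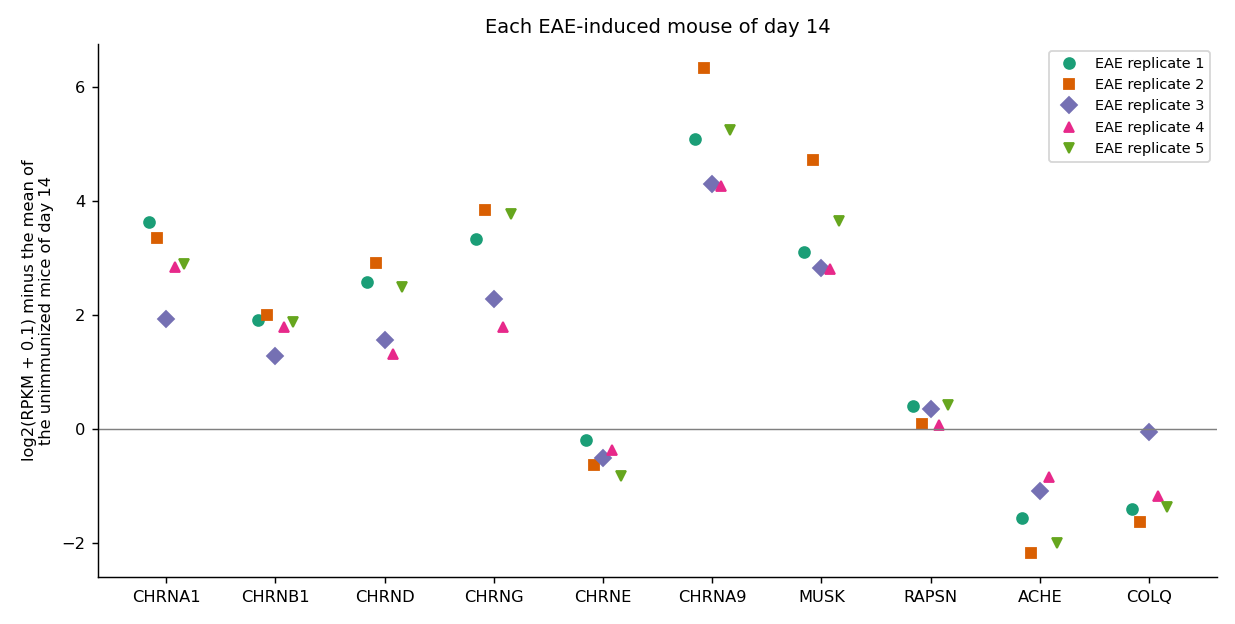
Each EAE-induced mouse of day 14 for the 10 genes, as log2(RPKM + 0.1) minus the mean of the unimmunized mice of that day, with 1 marker shape and colour per mouse. Replicates 1, 2 and 5 lie above replicates 3 and 4 in all 6 higher genes, and replicate 3 lies near 0 in COLQ.

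By level, the order of the 10 genes was also different on day 14. In unimmunized mice CHRNB1, RAPSN and ACHE, with means of 31.5, 30.8 and 30.8 RPKM and overlapping ranges, were followed by CHRNE (12.3), COLQ (6.98), CHRNA1 (6.71), CHRND (2.66), CHRNG (1.09), MUSK (0.708) and CHRNA9 (0.0366). COLQ and CHRNA1 were neighbours whose ranges overlapped, and so were CHRNG and MUSK. In EAE-induced mice the order was CHRNB1 (109.2), CHRNA1 (55.8), RAPSN (36.9), CHRND (13.4), ACHE (11.1), CHRNG (10.6), MUSK (9.02), CHRNE (8.61), CHRNA9 (5.01) and COLQ (3.41), and the ranges of all neighbours in this order overlapped except those of RAPSN and CHRND.

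OVA-immunized and unimmunized mice of day 14 did not differ by the criteria in any of the 6 genes tested. In this comparison 0.142% of 8471 genes were called, 12 in all. The log2 fold changes of the 6 tested genes were between -0.29 (COLQ, 95% interval -0.76 to 0.19) and 0.03 (RAPSN), with limma adjusted p of at least 0.701 and 0 genes at an unadjusted p under 0.05. CHRNG, under 3 RPKM in both groups, had the log2 fold change farthest from 0 of the 10 genes, -0.63 (SE 0.37, limma adjusted p 0.624 in the fit without the filter). The ratio of CHRNG to CHRNE was lower in OVA-immunized mice by -0.47 (exact permutation p 0.0794, adjusted 0.0952), a difference that did not pass.

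On day 40, none of the 10 genes was called in any of the 3 comparisons by limma. Of them 7 were tested in EAE vs. Ctrl, 6 in EAE vs. OVA and 7 in OVA vs. Ctrl. CHRND was not tested in EAE vs. OVA, with means of 2.54 and 2.93 RPKM. The share of all tested genes called was 0.46% in EAE vs. Ctrl, 0.209% in EAE vs. OVA and 0% in OVA vs. Ctrl. CHRNA1 had 5.40 to 6.51 RPKM with EAE, 5.28 to 7.99 RPKM without immunization and 5.83 to 6.89 RPKM with OVA, and EAE-induced mice differed from unimmunized mice by -0.08 on the log2 scale (95% interval -0.29 to 0.13). ACHE had 28.2 ± 5.65, 26.3 ± 4.52 and 27.4 ± 3.77 RPKM in the same order (SD, n = 5 each). CHRNG, CHRNA9 and MUSK had means under 3 RPKM in all 3 groups of day 40. Of these, MUSK had the difference farthest from 0. It was at 0.348, 1.28, 0.438, 1.01 and 0.694 RPKM in EAE-induced and 1.13, 1.204, 2.07, 0.552 and 1.59 RPKM in unimmunized mice, with overlapping groups. In the fit without the filter this was -0.74 on the log2 scale (95% interval -1.44 to -0.04, limma adjusted p 0.217).

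Among the genes above the filter on day 40, COLQ had an unadjusted p under 0.05, in EAE vs. OVA. It was at 6.47, 6.71, 6.48, 5.26 and 6.61 RPKM in EAE-induced and 7.13, 8.06, 7.61, 8.95 and 7.90 RPKM in OVA-immunized mice. None of the first 5 mice reached the lowest of the others, a separation seen in 4.9% of all genes tested. Its log2 fold change was -0.33 (SE 0.08, limma p 0.00106, adjusted p 0.0761), short of both criteria. Against unimmunized mice, at 6.29 to 7.50 RPKM, the groups overlapped (log2 fold change -0.16, limma adjusted p 0.210).

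On day 40 the log2 ratio of CHRNG to CHRNE was -4.21 ± 0.40 in mice with EAE, -3.75 ± 0.09 without immunization and -4.28 ± 0.48 with OVA. It was lower in EAE-induced than in unimmunized mice by -0.46 (exact permutation p 0.0159, adjusted 0.0317). The adjusted p did not stay under 0.05 when 1 was added to the RPKM in place of 0.1 (difference -0.24, adjusted p 0.0714) or when any of 8 of the 10 mice was left out (differences from -0.52 to -0.30, adjusted p 0.0635 each time). EAE-induced and OVA-immunized mice differed by 0.07 (exact permutation p 0.825), and OVA-immunized and unimmunized mice by -0.53 (exact permutation p 0.0556, adjusted 0.0833). CHRNG was under 1.05 RPKM in every mouse of day 40.

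Whether an effect changed from day 14 to day 40 was tested by an interaction term in 1 limma fit of all 30 mice. For EAE vs. Ctrl it was called in 8 of the 10 genes, all but CHRNE and RAPSN, beside 32.7% of 9013 genes tested. For EAE vs. OVA it was called in 7, the same without COLQ (limma adjusted p 0.108), beside 21.8% of 8935 genes. For OVA vs. Ctrl it was called in 0 of 7 tested genes and in 0% of all tested genes, with limma adjusted p of at least 0.562 for these genes. The effect on CHRNE changed by 0.56 between the days (limma adjusted p 0.0114), short of the fold threshold. For the interaction a gene was tested when any of the groups used had a mean over 3 RPKM. CHRNG, CHRNA9 and MUSK passed this filter through EAE-induced mice of day 14 alone, and so did CHRND in EAE vs. OVA. Day 14 and day 40 are different mice, and age moves with the day, so the 2 cannot be told apart in the levels of 1 group.

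Genes that act around these 10 were read from gene lists. Of 15 genes of agrin and neuregulin signalling, 10 were tested on day 14 in EAE vs. Ctrl, 2 were called higher and 1 lower, with a median log2 fold change of 0.28 beside 0.11 over all tested genes, of which 26.4% were called. The genes called were DOK7, the MUSK adaptor, at 5.34 RPKM in unimmunized and 9.80 RPKM in EAE-induced mice (log2 fold change 0.90), CRKL, another adaptor (0.85), and AGRN, which encodes agrin (3.94 and 2.42 RPKM, -0.66). CRK (0.49) and GABPA (0.50), the Ets factor of the N-box, did not reach 1.5-fold. Against OVA-immunized mice, where 20.3% of all tested genes were called, 1 gene of this list was called higher, DOK7 (0.71), and 0 lower. LRP4, the agrin receptor, was under 3 RPKM, at 1.92 and 2.16 RPKM.

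Of 12 postsynaptic scaffold genes 10 were tested, and 5 were called higher and 0 lower in EAE vs. Ctrl (median log2 fold change 0.57), beside 14.6% of all tested genes called higher. SYNE1 (1.00), which anchors the nuclei under the synapse, ANK3 (0.95), which holds the sodium channels of the synaptic folds, DAG1 (0.88), the dystroglycan core protein, DTNA (0.75) and MACF1 (0.73) were the called genes. SYNE1 had a mean of 2.95 RPKM in unimmunized mice and was tested against them through the EAE-induced group alone. Against OVA-immunized mice 3 were called higher, SYNE1, ANK3 and MACF1, beside 11% of all tested genes. Of 13 genes of the synaptic basal lamina 4 were tested and 1 was called higher, LAMA5 (0.83), while LAMB2 (-0.50), HSPG2 (-0.44) and LAMA4 (-0.27) were not called (median -0.36). Against OVA-immunized mice 1 of 5 tested genes of that list, LAMA5, was called, where 20.3% of all tested genes were called in either direction. LAMA5 was at 2.503 and 2.52 RPKM in unimmunized and OVA-immunized mice, so it was tested through the EAE-induced group alone, at 4.54 RPKM.

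Of 8 genes of denervation signalling 6 were tested, and 6 were called higher both against unimmunized mice (median log2 fold change 2.55) and against OVA-immunized mice (2.66). Among all tested genes 14.6% and 11% were called higher in these comparisons. HDAC4, RUNX1 and NCAM1 had means under 3 RPKM in unimmunized mice and were tested there through the EAE-induced group alone. RUNX1 was at 1.05 to 1.54 RPKM in OVA-immunized mice, so against them it too was tested through the EAE-induced group alone. The same held for either HDAC4 or NCAM1, since in OVA vs. Ctrl on day 14 only 4 genes of the list passed the filter. The 2 genes not tested, HDAC9 and DACH2, were under 3 RPKM in unimmunized and EAE-induced mice. MYOG, encoding myogenin, was at 10.1 RPKM in unimmunized and 207.1 RPKM in EAE-induced mice (log2 fold change 4.10). RUNX1 (2.84), GADD45A (2.62) and NCAM1 (2.49), the neural cell adhesion molecule found along denervated fibres, followed, then HDAC4 (2.27) and MYOD1 (1.90). In single EAE-induced mice MYOG was at 272.9, 368.8, 112.4, 65.9 and 215.7 RPKM and RUNX1 at 10.8, 19.6, 6.74, 4.08 and 16.4 RPKM, both with replicate 2 highest and replicates 3 and 4 lowest. None of the genes of these 4 lists was called in OVA vs. Ctrl on day 14 or in any comparison of day 40.

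**Figure D5:**
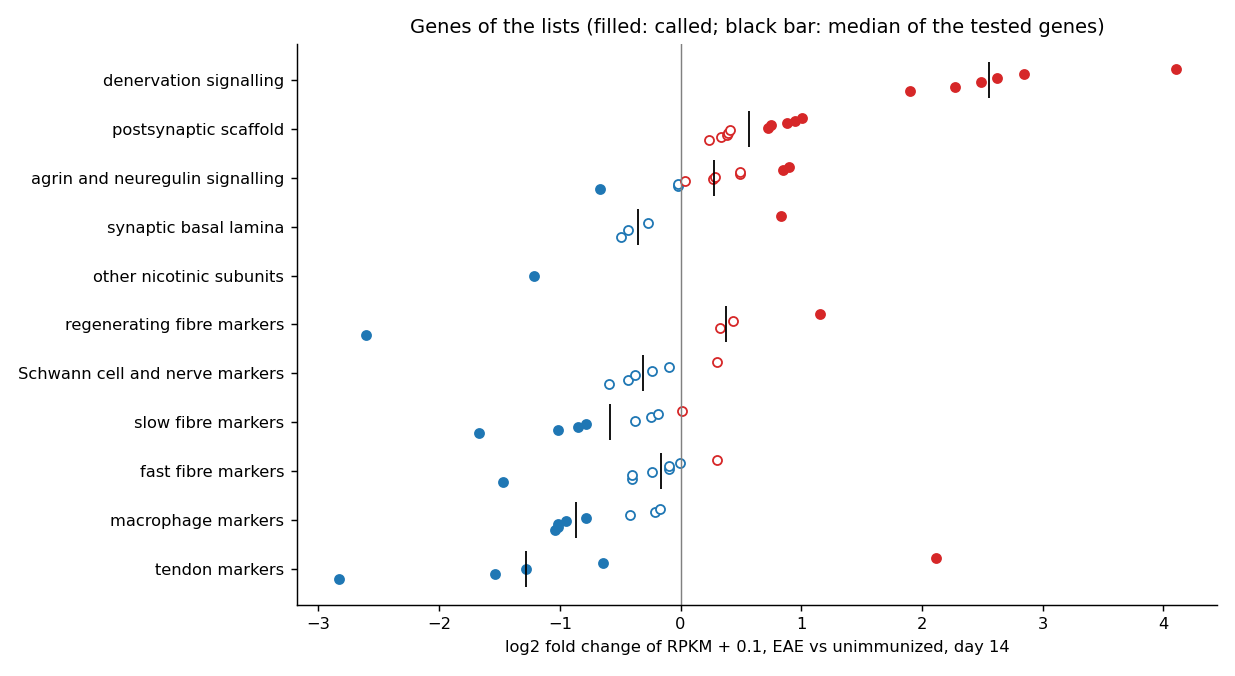
Log2 fold change of RPKM + 0.1 between EAE-induced and unimmunized mice of day 14 for the tested genes of 11 gene lists, 1 point per gene, filled where called, with the median of a list as a black bar. The denervation list has its median at 2.55 and the postsynaptic scaffold list at 0.57, and the macrophage and tendon lists have theirs at -0.86 and -1.28.

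Some markers of other cells and of fibre types were also called in EAE-induced mice of day 14. Among all genes tested against unimmunized mice, 11.8% were called lower and 14.6% higher. Of 8 macrophage markers 5 were called lower against unimmunized mice and 0 higher, with a summed level of 85.6 to 163.5 RPKM in EAE-induced and 174.6 to 288.9 RPKM in unimmunized mice. Of 5 tested tendon markers 4 were called lower and 1 higher, SCX, with sums of 279.5 to 434.8 and 498.2 to 716.3 RPKM. Of 8 slow fibre markers 4 were called lower (sums of 1082 to 1861 and 1852 to 3061 RPKM). Of 8 fast fibre markers 1 was called lower, PVALB (median log2 fold change -0.16). The fast fibre sums were 48656 to 61604 RPKM in EAE-induced and 65993 to 93399.7 RPKM in unimmunized mice, without overlap. In OVA-immunized mice they were 60005 to 86691 RPKM and overlapped those of EAE-induced mice. Of 6 tested markers of Schwann cells and nerve 0 were called, with sums of 82.6 to 123.7 RPKM in EAE-induced and 116.3 to 126.1 RPKM in unimmunized mice. None of the markers of these 5 lists was at 0 in all mice of a group. The part of these shifts in the levels of the receptor and junction genes was not tested.

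Genes with a like course over the 6 groups were looked up for 5 of the genes by the root mean square difference of their 6 group means on the log2(RPKM + 0.1) scale, each relative to unimmunized mice of day 14, among 10980 genes with a mean above 1 RPKM over the 30 mice. Nearest to CHRNA1 were TMEM100 (0.11), CDKN1A (0.12) and MKNK2 (0.18). Nearest to CHRNG were GADD45A (0.38), TMEM100 (0.42) and CD82 (0.42), and nearest to MUSK were ATP13A3 (0.18), KCNN3 (0.19) and AMPD3 (0.26). ACHE had FSTL1 (0.07), MAP2K6 (0.08) and ADAMTSL4 (0.08) beside it, and CHRNE had EMX2 (0.03), FOXO6 (0.04) and NICN1 (0.06). The nearest gene to CHRNG was farther away than the nearest gene to each of the other 4. These distances rest on 6 means and are a description.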

How the data were processed

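RNA was taken from EDL muscle of 30 mice and sequenced as paired-end reads of poly(A) RNA. Per the study's methods and the labels, the authors mapped reads to mm10 with Subread, counted them per gene with featureCounts and scaled them to RPKM. The table is named as RPKM, but the values the authors deposited were log2(RPKM + 1): of values coming to 3 to 15 reads in genes shorter than 1200 bases, 52.3% of 3505 lay within 0.05 of a whole read when read so, against 27.5% of 4222 as RPKM and 38.23% of 3939 as natural log, and a gene without a read was listed as 0.0001. RPKM was recovered from them, and depth was estimated from the step that 1 read adds. Counts were not used here.

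Genes were tested with limma 3.58.1 (R 4.3.3, eBayes with trend) after taking log2(RPKM + 0.1). Each day had 1 fit of its 15 mice, Benjamini-Hochberg adjustment over all genes tested, and calls at an adjusted p below 0.05 with a fold change above 1.5. The study itself set these thresholds for a count test. Genes with a mean above 3 RPKM in either compared group were tested. For the CHRNG to CHRNE ratio, an exact permutation test (two-sided, Python 3.11.15) was adjusted over 6 comparisons. The fits were tested on simulated data. The text names the 10 genes, genes of 12 lists (nicotinic subunits, agrin and neuregulin signalling, basal lamina, postsynaptic scaffold, denervation, regenerating fibres, Schwann cells, slow and fast fibres, macrophages, lymphocytes, tendon) and the 3 nearest genes by pattern to CHRNA1, CHRNG, CHRNE, MUSK and ACHE. Beside the 8 denervation genes given, 1 further gene planned for that list is not reported here. The genes and lists were chosen with earlier results of these data known. Gene positions are from GENCODE M21 on GRCm38, which is mm10. Alternatives covered the pseudocount, the filter, the mice in the fit, the scaling, the fold threshold, the trend, a replicate block and leaving out each mouse. The replicate numbers of the groups were not treated as pairs. None of the 60 pairs of libraries of 1 group agreed within sampling noise.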

Additional observations from a re-analysis of the deposited data

Results flagged for a closer look

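Of the 60 sets of 5 mice (10 genes in 6 groups), 4 held a mouse whose gap to the next, as a share of the group's range, was above the critical value of Dixon's test. Chance flags about 1 in 20 groups. CHRNA1 was highest in EAE replicate 5 of day 40, at 6.511 RPKM. CHRND was lowest in unimmunized replicate 1 of day 14, at 1.788 RPKM, and in OVA-immunized replicate 1 of day 14, at 1.383 RPKM. COLQ was lowest in EAE replicate 4 of day 40, at 5.256 RPKM.

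The remaining results are those where the effect of EAE differed between the days, by the interaction term of the limma fit (day 40 minus day 14, log2 scale). In the comparison with unimmunized mice the effect on CHRNA1 changed by -3.013 (limma adjusted p 4.92e-09), that on CHRNB1 by -1.765 (2.54e-08) and that on CHRND by -2.408 (4.08e-06). For CHRNG the change was -3.414 (1.53e-06), for CHRNA9 -5.114 (3.55e-07) and for MUSK -4.171 (2.33e-06). The lower esterase genes moved the opposite way, ACHE by 1.625 (5.69e-05) and COLQ by 0.9591 (0.00253). In the comparison with OVA-immunized mice, which shares the EAE-induced mice, the changes were -3.078 (1.44e-09) for CHRNA1, -1.859 (1.35e-08) for CHRNB1 and -2.367 (6.33e-06) for CHRND. They were -3.617 (8.37e-07) for CHRNG, -4.867 (8.05e-07) for CHRNA9, -3.568 (2.25e-05) for MUSK and 1.271 (0.00102) for ACHE. CHRNG, CHRNA9 and MUSK, and CHRND against OVA-immunized mice, were tested through EAE-induced mice of day 14 alone.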

How the results depend on the processing

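Over all alternatives the number of genes called on day 14 stayed between 7 and 9 for EAE vs. Ctrl and between 7 and 8 for EAE vs. OVA, and it was 0 in the other 4 comparisons. The 7 came from a filter at a mean of 1 RPKM over all 30 mice, which leaves out CHRNA9, and the 9 added CHRNE (no fold threshold, or without unimmunized replicate 3). The day interaction was called in 7 to 9 genes for EAE vs. Ctrl and 6 to 8 for EAE vs. OVA, with CHRNE added under other scalings, with no fold threshold or without 1 of 6 mice (unimmunized replicates 2 and 3 and EAE replicates 1 and 4 of day 14, unimmunized replicate 2 and EAE replicate 5 of day 40), and COLQ added under other scalings or without EAE replicate 3 of day 14. None of the 1964 recomputed values was a reversal of a called result. With 1 added to RPKM the log2 fold changes of day 14 against unimmunized mice were 2.38 for CHRNA9, 2.41 for MUSK and 2.31 for CHRNG, all still called. For the CHRNG to CHRNE ratio, the difference of EAE vs. Ctrl on day 40 was -0.24 with 1 added (exact permutation p 0.0476, adjusted 0.0714) and between -0.55 and -0.30 with a mouse left out. Leaving out a mouse moved OVA vs. Ctrl between -0.61 and -0.30 on day 14, passing the threshold without unimmunized replicate 5, and between -0.68 and -0.38 on day 40, passing it without OVA replicate 5. The causes were not tested. CHRNA9 had 0 to 6 reads in each mouse of day 40, so small differences were not detectable there.

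The labels do not say that the replicate numbers pair the mice. The deviations of same-numbered mice correlated above 0.1 in 0 to 3 of 5 numbers, depending on the comparison. In EAE vs. OVA on day 14 their mean correlation was 0.29, beside -0.07 for mice of other numbers. In the other comparisons the mean for same-numbered mice was between -0.21 and 0.03. Whether the numbers mark pairs is not settled by these values. With a replicate block the genes called stayed at 8, 8, 0, 0, 0 and 0, and the interactions at 8, 7 and 0. In the paired form of the ratio test, an exact sign-flip test, the differences 3.51, 3.98 and -0.46 (EAE vs. Ctrl and EAE vs. OVA on day 14, EAE vs. Ctrl on day 40) could not pass, since 5 pairs allow no p below 0.0625.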

Other observations

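Beyond the muscle subunits, 10 other nicotinic subunit genes were listed. Only CHRNA10, the partner of the alpha9 subunit in hair cells, exceeded 3 RPKM in any group of day 14. It was lower in EAE-induced mice, with a mean of 3.35 RPKM where unimmunized mice had 7.74 RPKM (-1.22 on the log2 scale, limma adjusted p 0.000133), and it was also called against OVA-immunized mice (-0.85). CHRNA9 was called higher in the same comparisons. CHRNA3 and CHRNA6 were listed at 0 in all unimmunized and EAE-induced mice of day 14.

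Markers of regenerating fibres did not move together on day 14. Of the 7 listed genes 6 were in the table and 4 were tested in EAE vs. Ctrl. MYL4, the embryonic myosin light chain, was called higher (1.16), ACTC1, the cardiac actin of immature fibres, was called lower (-2.61, from 249.9 to 38.2 RPKM), and MYH8 (0.44) and MYH3 (0.32), the perinatal and embryonic myosin heavy chains, were not called. Lymphocyte markers were each under 3 RPKM, with a summed level of 1.52 to 2.82 RPKM in EAE-induced and 3.01 to 6.47 RPKM in unimmunized mice of day 14, and were not tested.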
